A study of Mus musculus with 8 samples.

Results

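RXR binding was examined at 31 genes of autophagy and the lysosome in hearts of newborn mice. The genes were taken from a list, and a peak was counted for a gene when its summit, the position of highest signal, lay within 10 kb of either end of the gene in RefSeq (mm10, GRCm38.p6). The list holds 31 of the 21887 protein-coding genes of the nuclear chromosomes, and its peaks numbered 31 of 19129 in WT replicate 3, 9 of 4697 in WT replicate 4, 0 of 8 in edKO replicate 3 and 0 of 127 in edKO replicate 4. The WT hearts were wild type. The edKO hearts were RXRab-/- in cardiomyocytes only, and the driver of the deletion was not given in the sources used here. All hearts were total hearts taken on postnatal day 0, and the other cell types of an edKO heart were not targeted by the deletion. Each genotype had 2 hearts, numbered 3 and 4, each heart being 1 biological replicate with an RXR immunoprecipitate and an input library.

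Autophagy delivers cytoplasm and organelles to the lysosome for degradation. The ULK kinase complex starts the process, a lipid kinase complex around Beclin 1 and the WIPI proteins nucleate the membrane, ubiquitin-like conjugation attaches proteins of the ATG8 family to it, and lysosomal hydrolases break down the contents. The transcription factors TFEB and TFE3 activate many of these genes through E-box elements. In the heart, autophagy is known to supply amino acids and energy in the hours after birth, when placental nutrition ends. RXRs bind DNA with partner nuclear receptors at pairs of a short motif, and several of these partners respond to fatty acids or sterols.

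Promoter windows are shown for the 5 genes whose shared region had its summit within 500 bp of the first base of a RefSeq promoter window (GRCm38.p6, 250 bases before to 50 after a transcription start). A shared region is one where peaks of the WT hearts overlap. They show the DNA under or beside the peaks on which the results turn, 5′ to 3′ on the strand of the gene. Capitals mark the hexamer motif of RXR and its partners and the E-box CACGTG. The hexamer was searched on either strand as AGGTCA and as GGGTCA, and further as AGTTCA and as GGTTCA.
Ctsl chr13:64370471-64370770 (-): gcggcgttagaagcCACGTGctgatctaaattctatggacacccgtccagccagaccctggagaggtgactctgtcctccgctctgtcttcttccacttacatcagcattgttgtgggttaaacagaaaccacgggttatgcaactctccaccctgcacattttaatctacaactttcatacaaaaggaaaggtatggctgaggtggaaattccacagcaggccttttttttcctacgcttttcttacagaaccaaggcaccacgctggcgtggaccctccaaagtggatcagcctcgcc
Ulk2 chr11:61855043-61855342 (-): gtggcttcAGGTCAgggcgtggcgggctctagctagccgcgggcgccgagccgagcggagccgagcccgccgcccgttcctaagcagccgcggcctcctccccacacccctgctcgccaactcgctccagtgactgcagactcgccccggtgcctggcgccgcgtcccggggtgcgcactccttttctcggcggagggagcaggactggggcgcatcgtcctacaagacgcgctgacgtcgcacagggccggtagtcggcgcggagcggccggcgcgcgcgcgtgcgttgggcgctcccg
Atg5 chr10:44268089-44268388 (+): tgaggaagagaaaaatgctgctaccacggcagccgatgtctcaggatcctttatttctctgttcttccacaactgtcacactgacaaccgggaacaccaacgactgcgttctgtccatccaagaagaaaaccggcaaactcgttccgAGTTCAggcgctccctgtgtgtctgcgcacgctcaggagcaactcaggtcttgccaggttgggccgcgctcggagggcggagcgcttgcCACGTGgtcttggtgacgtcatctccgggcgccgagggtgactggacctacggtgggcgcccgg
Tfe3 chrX:7762411-7762710 (+): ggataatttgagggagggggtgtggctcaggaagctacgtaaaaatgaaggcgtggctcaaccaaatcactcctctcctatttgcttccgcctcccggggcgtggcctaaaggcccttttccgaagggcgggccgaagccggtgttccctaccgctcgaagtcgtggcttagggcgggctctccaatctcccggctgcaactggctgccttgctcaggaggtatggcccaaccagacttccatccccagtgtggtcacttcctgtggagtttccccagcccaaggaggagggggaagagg
Tfeb chr17:47737681-47737980 (+): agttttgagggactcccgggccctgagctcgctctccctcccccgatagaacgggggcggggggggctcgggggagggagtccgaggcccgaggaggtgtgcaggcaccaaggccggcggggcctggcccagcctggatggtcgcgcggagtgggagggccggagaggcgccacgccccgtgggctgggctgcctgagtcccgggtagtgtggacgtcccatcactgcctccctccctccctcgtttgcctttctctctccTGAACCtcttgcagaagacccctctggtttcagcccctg
The windows of Ulk2 and Atg5 contained the WT replicate 3 summit itself, at window positions 169 and 238. The region covered 300 of the 300 bases at Ulk2 and 291 at Atg5. At Ctsl it covered 242 bases, at Tfe3 82 and at Tfeb 73. The WT replicate 3 summit lay downstream of the Ctsl and Tfe3 windows and upstream of the Tfeb window. The WT replicate 4 summit at Ctsl, at 64370496, lay inside the window.

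A hexamer was present in the windows of Ulk2 (AGGTCA), Atg5 (AGTTCA) and Tfeb (TGAACC, on the other strand) and in neither the Ctsl nor the Tfe3 window. The Tfeb hexamer lay outside the part of its window that the shared region covered. Of all 32851 promoter windows of this length 43.7% hold a hexamer, and of the 999 windows with the summit of a shared region 54.6%. E-boxes were found in the windows of Atg5 and Ctsl, and the one of Ctsl lay outside the part covered by the shared region. E-boxes occur in 7.15% of all windows and in 12.3% of those with a shared summit. The summit of a shared region is that of WT replicate 3, and the Ctsl, Tfe3 and Tfeb windows do not hold it. No window of the 5 genes held a direct repeat of 2 hexamers with 1 to 5 bases between them. Repeats with 1 base between occur in 0.222% of all windows and in 0.901% of those with a shared summit. These matches describe letters in the windows and not binding sites.

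Shared RXR regions were found at 7 genes of the list. They were the kinase gene Ulk2, the conjugation gene Atg5, the ATG8 gene Map1lc3a, the transcription factor genes Tfeb and Tfe3, the cholesterol transporter gene Npc1 and the protease gene Ctsl. The count was 7 of 31 genes, or 22.6% (95% Clopper-Pearson interval 9.59 to 41.1%), against 15.2% of all protein-coding genes. The interval covers the value for all genes, so a difference from them was not detectable in a list of this size. Within 1 kb of a gene end the count was again 7 of 31 genes (22.6%), against 8.38% of all protein-coding genes, a value below the interval of 9.59 to 41.1%. The genes were chosen with earlier results of these data known and are not replicates, so this is no test of enrichment. Of all genes with a shared region within 10 kb, 55.3% had one within 1 kb, and of the listed ones 7 of 7. The genes lay near 8 of the 4342 shared regions, since Map1lc3a had a second one. The strongest region of each gene had a fold enrichment, averaged over the WT hearts, with a median of 8.75 over the 7 genes, against 7.97 over all 3318 genes with a region. This order turned with 1 WT heart alone, where the medians over all genes with a peak of that heart were 5.30 (22 listed genes) against 6.32 for WT replicate 3, and 5.72 (7 listed genes) against 6.13 for WT replicate 4. The listed genes were not matched with other genes on expression or on neighbouring genes. Their median length was 18554 bp, against 17169 bp for all genes.

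**Figure D1:**
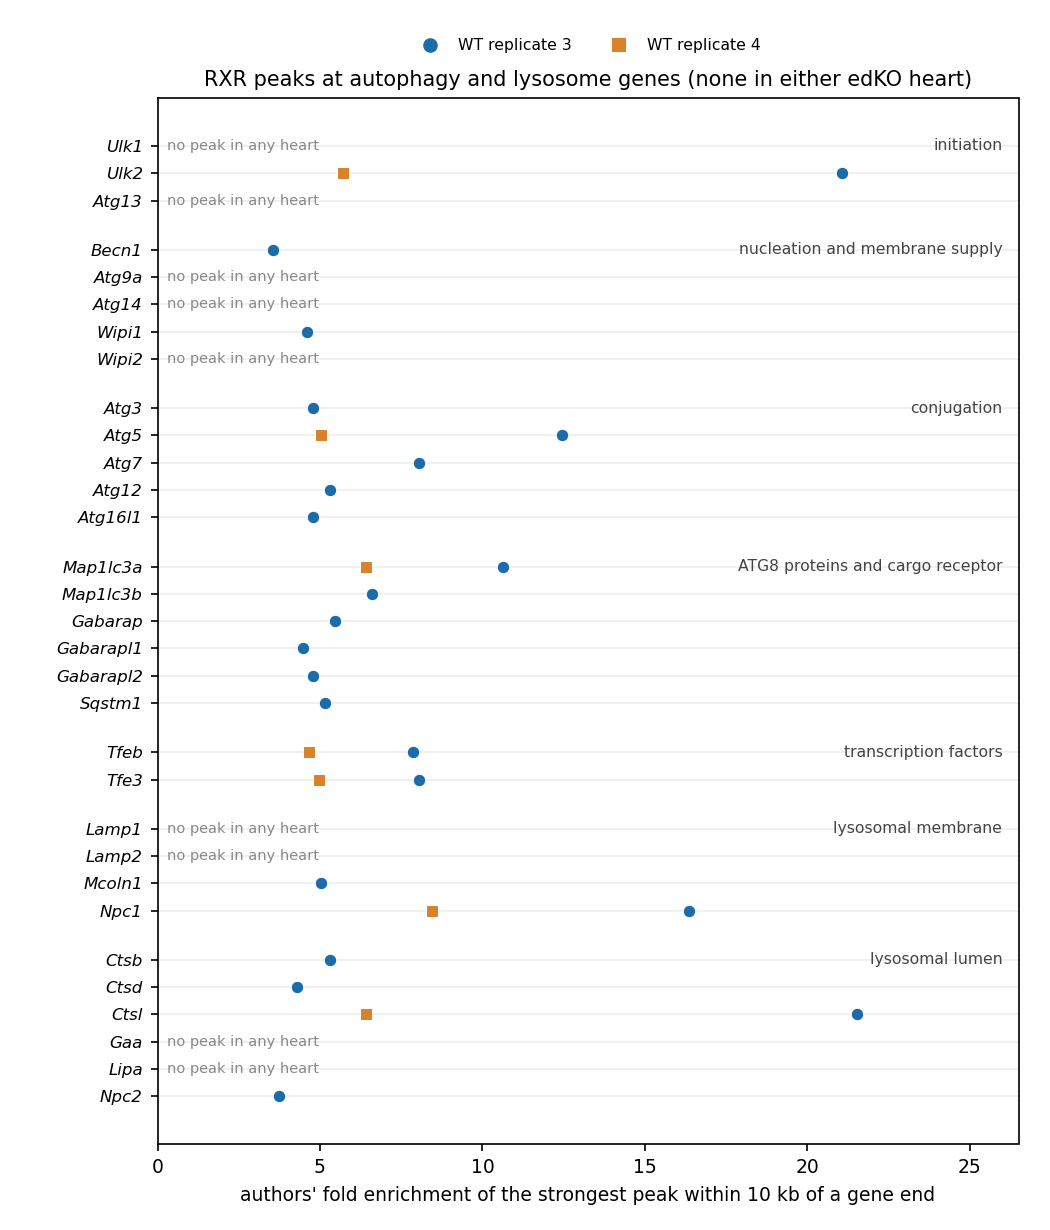
The horizontal axis gives the authors' fold enrichment of the strongest peak within 10 kb of each of the 31 genes, ordered by role, with a circle for WT replicate 3 and a square for WT replicate 4. Squares appear at 7 genes, 15 genes have a circle alone and 9 have no peak in any heart.

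Among the initiation genes, Ulk2, which encodes one of the paired ULK kinases that start autophagosome formation, had the most fragments of any shared region of the list. The number of fragments at a summit was recovered from the fold enrichment and the p-value of each peak. It was 98 (95% Poisson interval 79.6 to 119) in WT replicate 3 and 25 (16.2 to 36.9) in WT replicate 4, and the intervals do not overlap. The fold enrichment was 21.1 and 5.72, a ratio of 3.68 between the hearts. Across all shared regions this ratio had a median of 1.49, and 1.34% of regions had a higher one. The region spanned 61854702 to 61855490 of chromosome 11 (mm10), and its highest point was 160 bp into the gene. WT replicate 4 had another peak there, with a fold enrichment of 4.84 and its summit 498 bp away. Neither Ulk1, the other kinase gene, nor Atg13, which encodes a subunit of the same complex, had a peak in any heart.

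None of the 5 genes of membrane nucleation and supply had a shared region (Clopper-Pearson interval 0 to 52.2%), against 15.2% of all protein-coding genes. A group of 5 genes is too small to tell these shares apart. Becn1, which encodes the Beclin 1 subunit of the lipid kinase complex, had a peak of WT replicate 3 alone, 52 bp outside the gene, with a fold enrichment of 3.56, lower than at any other listed gene. Wipi1, a phosphoinositide-binding protein gene, had 2 peaks of WT replicate 3. The peak 552 bp outside the start had a fold enrichment of 4.59. The peak beyond the other end, at 3.62, lay inside the neighbouring arylsulfatase gene Arsg. Atg9a, which encodes a membrane protein of autophagic vesicles, Atg14, a subunit gene of the lipid kinase complex, and Wipi2 had no peak.

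All 5 conjugation genes had a peak in WT replicate 3 and 1 of them, Atg5, in WT replicate 4. Of all protein-coding genes 42.4% had a peak in WT replicate 3 and 15.8% in WT replicate 4. Atg5 encodes the protein that joins ATG12 and ATG16L1 into the enzyme for ATG8 lipidation. The Atg5 region spanned 44268098 to 44268563 of chromosome 10, with the summit 4 bp into the gene. It had 46 fragments (33.7 to 61.4) in WT replicate 3 and 25 (16.2 to 36.9) in WT replicate 4, with fold enrichments of 12.5 and 5.03. The fragment intervals overlap. The local background was also higher in WT replicate 4 at this place, at 4.14 fragments against 2.77. The peaks of WT replicate 3 at Atg3, the E2-like enzyme gene (41 bp outside the start, fold enrichment 4.77), and Atg16l1 (86 bp inside, 4.77) were weaker. The Atg12 peak, 19 bp beyond the gene and within Ap3s1 next to it, which encodes a subunit of an endosomal sorting complex, had a fold enrichment of 5.30. The peak at Atg7, the E1-like enzyme gene, had a fold enrichment of 8.04 and lay 2342 bp inside the end of the gene, not at its start.

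All 6 genes for ATG8 proteins and the cargo receptor p62 had a peak in WT replicate 3, and only Map1lc3a among them had one in WT replicate 4. The shares of all protein-coding genes were 42.4% in WT replicate 3 and 15.8% in WT replicate 4. Map1lc3a, which encodes LC3A, had 2 shared regions on chromosome 2. The region from 155276251 to 155276972, with its summit 60 bp inside the gene, had 24 fragments (15.4 to 35.7) in each heart. Its fold enrichment was 4.45 in WT replicate 3 and 6.05 in WT replicate 4, with local backgrounds of 4.62 and 3.10 fragments. The fold enrichment was higher in WT replicate 4, and 95.7% of shared regions had a higher ratio of WT replicate 3 to WT replicate 4. The region from 155287348 to 155287861 lay 9558 bp from Map1lc3a, within Pigu, which encodes a subunit of the enzyme for glycolipid anchors. It had 36 fragments (25.2 to 49.8) and 21 (13.0 to 32.1), with fold enrichments of 10.6 and 6.42.

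The peaks of WT replicate 3 at the other ATG8 genes lay before the gene start. The Gabarap peak was 336 bp away with a fold enrichment of 5.45, that of Gabarapl1 489 bp (4.47), that of Gabarapl2 93 bp (4.77) and that of Map1lc3b, the LC3B gene, 4994 bp (6.60). Sqstm1, the p62 gene, had a peak 556 bp inside its start (4.51) and one 2497 bp before it (5.14).

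Both transcription factor genes had shared regions close to a transcription start. Their fold enrichment stood in the top 21.3% (Tfe3) and 22.8% (Tfeb) of the 19129 peaks of WT replicate 3. In the shorter list of WT replicate 4, with 4697 peaks, it stood in the top 72.9% and 79.6%. The ranks themselves were 4084 and 4354 in WT replicate 3 and 3422 and 3739 in WT replicate 4, so the percentages differ through list length. The ratios of fold enrichment between the hearts, 1.62 (Tfe3) and 1.69 (Tfeb), were exceeded by 42.4% and 38.6% of shared regions. The Tfeb region spanned 47736928 to 47737753 of chromosome 17 and peaked 529 bp into the gene, with 36 fragments (25.2 to 49.8) in WT replicate 3 and 15 (8.40 to 24.7) in WT replicate 4. The fragment intervals do not overlap. The local background was 3.70 fragments in WT replicate 3 and 2.40 in WT replicate 4, and the fold enrichment was 7.88 and 4.67. WT replicate 3 had further peaks 832 bp inside the start of Tfeb (4.31) and 3236 bp beyond its end (5.17). The Tfe3 region spanned 7762629 to 7762938 of chromosome X and peaked 247 bp into the gene. It had 27 fragments (17.8 to 39.3) and 16 (9.15 to 25.98), with fold enrichments of 8.04 and 4.97 and overlapping intervals. The Tfe3 summits of the hearts were 10 bp apart, closer than at the other listed regions, where they were 37 to 239 bp apart. The median over all shared regions was 36 bp. With only peaks of a −log10 p of at least 10 kept in each list, neither Tfeb nor Tfe3 had a shared region.

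Of the 4 lysosomal membrane genes Npc1 had a shared region. Npc1 encodes the transporter that passes low-density lipoprotein cholesterol out of the lysosome. Its region spanned 12236277 to 12236828 of chromosome 18 and peaked 34 bp outside the gene, with 56 fragments (42.3 to 72.7) in WT replicate 3 and 28 (18.6 to 40.5) in WT replicate 4. The fold enrichment was 16.4 and 8.46, and 8.46 was higher than at any other listed gene in WT replicate 4. The intervals of the hearts do not overlap. The ratio of fold enrichment between the hearts, 1.93, was exceeded by 26.9% of shared regions. WT replicate 3 alone had another peak 556 bp outside this end (4.77) and 2 strong peaks near the other end, 5158 and 6276 bp inside Npc1 and also inside the overlapping gene Rmc1, which encodes a regulator of late endosomes. Their fold enrichments were 10.9 and 13.8, with 40 and 64 fragments and summits 1118 bp apart. Of the 1220 peaks of WT replicate 3 with a fold enrichment of at least 13.8, 92.7% belonged to a shared region, and this one did not. Mcoln1, which encodes the calcium channel TRPML1, had a peak of WT replicate 3 at 79 bp inside its start (5.04). Lamp1 and Lamp2, which encode the abundant glycoproteins of the lysosomal membrane, had no peak in any heart.

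Of the 6 genes for proteins of the lysosomal lumen Ctsl had a shared region. Ctsl encodes the cysteine protease cathepsin L. Its region spanned 64370103 to 64370712 of chromosome 13 and peaked 433 bp into the gene, with 74 fragments (58.1 to 92.9) in WT replicate 3 and 21 (13.0 to 32.1) in WT replicate 4. The fold enrichment was 21.5 and 6.42, and the intervals do not overlap. Its ratio of 3.35 between the hearts was exceeded by 2.56% of shared regions. Other cathepsin genes had peaks of WT replicate 3 alone. Ctsb, for cathepsin B, had one 103 bp inside the gene (4.59) and one 6389 bp inside (5.30), and Ctsd, for cathepsin D, had one 146 bp before its start (4.31). Npc2, whose product hands cholesterol to NPC1, had a peak 94 bp inside its start (3.74). Gaa, the acid alpha-glucosidase gene that degrades glycogen, and Lipa, the acid lipase gene, had no peak in any heart.

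**Figure D2:**
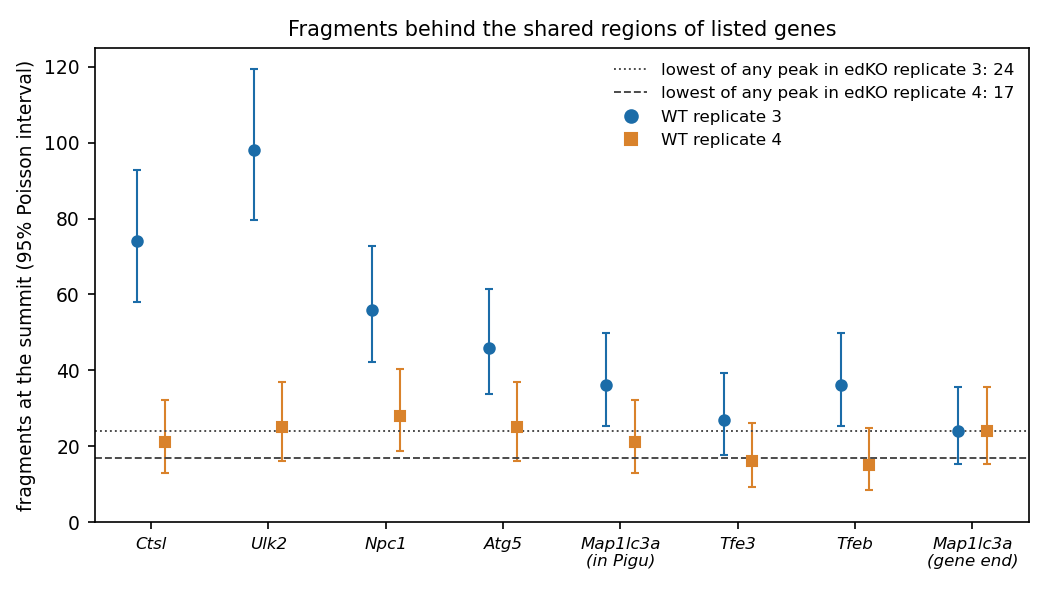
The vertical axis gives the number of fragments at the summit of each of the 8 shared regions, with 95% Poisson intervals, in WT replicates 3 (circles) and 4 (squares). Horizontal lines mark the lowest number at any peak of edKO replicate 3 (24) and of edKO replicate 4 (17). Ulk2 and Ctsl have the widest gap between hearts, and Map1lc3a has 24 fragments in each heart at its gene end.

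The WT hearts were then compared over the list. WT replicate 3 had a peak at 22 of 31 genes (71.0%, against 42.4% of all genes), and WT replicate 4 at 7 of 31 (22.6%, against 15.8%). The same 7 genes had the shared regions. Intervals of fragment number did not overlap between the hearts for Ulk2, Ctsl, Npc1 and Tfeb, with the higher number in WT replicate 3 each time. Their ratios of fold enrichment between the hearts were exceeded by 1.34%, 2.56%, 26.9% and 38.6% of all shared regions, in this order. The share of all shared regions with intervals that do not overlap was not computed. The lowest recovered background of the immunoprecipitates was similar, at 2.48 and 2.40 fragments per position. Peaks of WT replicate 3 without a shared region were found at 15 genes, with 18 peaks. Those 18 peaks had fold enrichments from 3.56 to 8.04, with a median of 4.77, and between 14 and 27 fragments. All 31 listed peaks of WT replicate 3 had a −log10 p above 4.70, the smallest value in the list of WT replicate 4. Their place in WT replicate 4 is known only as the lack of a peak. In the plot of fold enrichments of the hearts, 7 of the 8 listed regions lie on the side of WT replicate 3. Most of all shared regions lie there too, with a median ratio of WT replicate 3 to WT replicate 4 of 1.49.

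**Figure D3:**
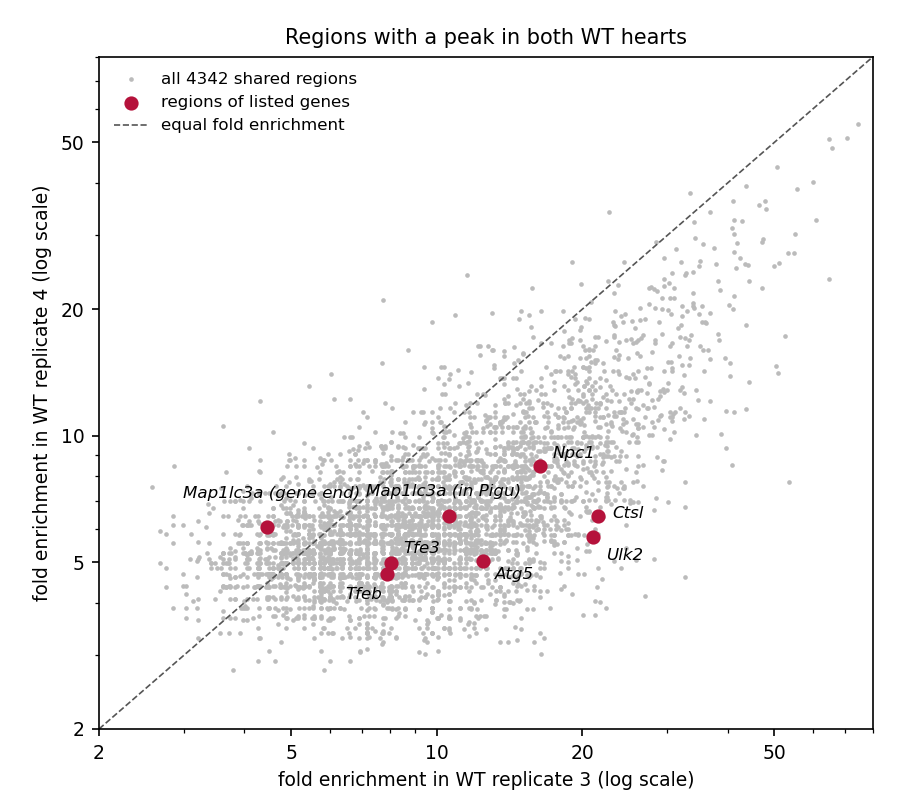
Each grey point is 1 of the 4342 shared regions, with its fold enrichment in WT replicate 3 (horizontal) and WT replicate 4 (vertical), both on log axes. The 8 listed regions (red) reach at most 21.5 and 8.46, and the Map1lc3a region at the gene end is the one above the line of equal fold enrichment.

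The strongest listed regions ranked high in WT replicate 3 and lower in WT replicate 4. In WT replicate 3, Ctsl ranked 374 and Ulk2 409 of 19129 peaks by fold enrichment, Npc1 788 and Atg5 1537, so that Ctsl stood in the top 1.96% of that list and Npc1 in the top 4.12%. In WT replicate 4, Npc1 ranked 961 of 4697 peaks, Ctsl 1894 and Ulk2 2601. By the mean of both hearts, Ctsl stood in the top 13.5% of shared regions, Ulk2 in the top 14.9% and Npc1 in the top 18.1%. The other listed regions stood lower, from the top 39.9% for Atg5 to the top 87.3% for the Map1lc3a region at the gene end.

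Peaks of the list lay mostly at gene ends. Of the 8 shared regions 7 had the summit within 1 kb of a gene end (87.5%, 95% Clopper-Pearson interval 47.3 to 99.7%). Of all 2598 shared regions within 10 kb of a protein-coding gene end 61.7% lay that close, which is inside the interval. In WT replicate 3, 22 of the 31 peaks (71.0%) lay within 1 kb of a gene end. Of all peaks of this heart within 10 kb of a protein-coding gene end, 57.5% lay that close. The 22 peaks belonged to 20 genes, and 27.1% of all genes had a peak of this heart within 1 kb. The promoter table gives the strand of 25 listed genes. Of their 20 peaks in WT replicate 3, 17 were nearer to the start of the gene than to its end (85.0%), and 15 of the 20 were within 1 kb of the start. Over all 12641 pairs of such a gene and a peak of WT replicate 3 within 10 kb, these shares were 68.3% and 41.0%.

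**Figure D4:**
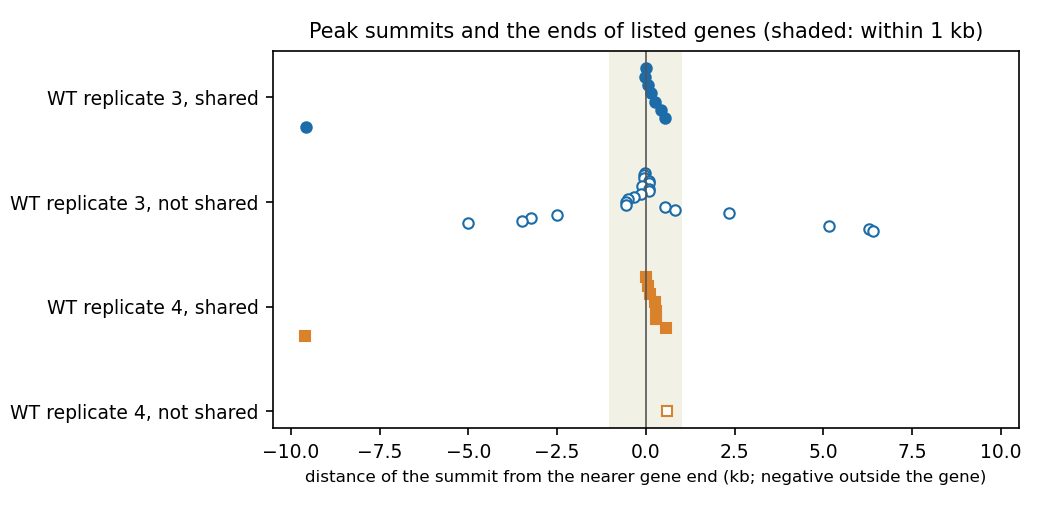
The horizontal axis gives the distance in kb of each WT summit from the nearer end of its listed gene, negative outside and positive inside the gene, with filled symbols for peaks of a shared region and open ones for the rest. The summits cluster within the shaded 1 kb, with 22 of 31 there in WT replicate 3 and 8 of 9 in WT replicate 4, and the shared region 9558 bp outside its gene is the Map1lc3a region inside Pigu.

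The genotypes were compared by the number of RXR peaks at listed genes. No listed gene had a peak in either edKO heart. WT hearts had 20.0 ± 15.6 peaks at listed genes (SD, n = 2), with 31 and 9, and edKO hearts had 0 and 0. The groups do not overlap, but 2 hearts against 2 cannot give a two-sided p below 0.333 in an exact permutation test, and this was the p obtained. Without WT replicate 3 the difference in means was 9 peaks and without WT replicate 4 it was 31. The edKO lists are short. Of all protein-coding genes 0.0548% had a peak of edKO replicate 3 and 0.580% one of edKO replicate 4, so that 0 of 31 genes is close to the share of all genes. In edKO replicate 4, 0 of 127 peaks allows a share of up to 2.36% at the listed genes, and in edKO replicate 3, 0 of 8 allows 37.5%. The listed genes' share of the WT lists was 0.162% (replicate 3) and 0.192% (replicate 4). The nearest edKO peak to any listed gene was a peak of edKO replicate 4 whose nearest gene was the fatty acid oxidation gene Acadvl, 20043 bp from Gabarap, with a fold enrichment of 3.08.

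The calling thresholds were not given in the sources used here, and the weakest peaks of such short lists do not show them. The lowest number at any peak was 24 fragments in edKO replicate 3 and 17 in edKO replicate 4, and the smallest −log10 p was 9.53 and 6.03. Of the 31 listed peaks of WT replicate 3, 18 had a −log10 p of at least 9.53 and 30 one of at least 6.03. Of the 9 listed peaks of WT replicate 4 these numbers were 6 and 9. The −log10 p of weaker listed peaks of WT replicate 3, such as Npc2 (7.66) and Becn1 (6.99), lay below that of every peak in the list of edKO replicate 3. The lowest recovered background was 3.13 fragments in edKO replicate 3 and 2.96 in edKO replicate 4, against 2.48 and 2.40 in WT replicates 3 and 4. Why the edKO lists are short was not tested, nor was whether the immunoprecipitates themselves differed in quality. Fewer cells with RXR and less RXR per cell cannot be told apart in a total heart.

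Further genes of the pathway were counted in 6 lists. Of 128 genes 37 had a shared region (28.9%, 95% Clopper-Pearson interval 21.2 to 37.6%, against 15.2% of all genes), and 24 had one within 1 kb of a gene end (18.8%, against 8.38%). These lists were also chosen with earlier results of these data known, so the intervals here and below are no test of enrichment. Neither edKO heart had a peak at any of these genes. Of all protein-coding genes 0.0548% had one in edKO replicate 3 and 0.580% in edKO replicate 4, so 0 of 128 is close to the share of all genes. Of 20 other genes of the autophagy core 4 had a region (20.0%, interval 5.73 to 43.7%, against 15.2% of all genes). The leading ones were Atg16l2 (fold enrichment 20.7 for WT replicate 3, then 7.02 for WT replicate 4, in this order below), whose region was nearest to the lipid transfer gene Stard10, the E2-like enzyme gene Atg10 (15.5 and 5.05) and Rb1cc1 (12.1 and 8.32). Rb1cc1 encodes FIP200, the scaffold of the ULK complex, and its region lay 149 bp outside the gene. Of 12 genes of mitophagy and cargo receptors 3 had a region (25.0%, interval 5.49 to 57.2%). They were the mitophagy receptor gene Bnip3l (6.32 and 7.97), the prohibitin gene Phb2 (6.76 and 5.86) and Bcl2l13 (4.02 and 6.42). These regions lay 30 to 163 bp outside the genes.

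Of 13 genes for fusion of autophagosomes with lysosomes 4 had a region (30.8%, interval 9.09 to 61.4%, against 15.2% of all genes). Within 1 kb of a gene end the number was 2 (15.4%, against 8.38% of all genes). The strongest were at Tecpr1 (11.2 and 6.42), the HOPS tethering subunit gene Vps18 (10.9 and 5.26) and the SNARE gene Vamp8 (7.80 and 4.67). Of 16 genes of the vacuolar ATPase, the proton pump of the lysosome, 5 had a region (31.25%, interval 11.0 to 58.7%), and 4 within 1 kb. The strongest were at Atp6v1g1 (14.4 and 8.53, nearest to Tmem268), Atp6v0a1 (13.8 and 8.25) and Atp6v1a (8.61 and 4.67, nearest to Naa50). Of 35 genes of other lysosomal proteins 11 had a region (31.4%, interval 16.9 to 49.3%), and 6 within 1 kb. Among them were the arylsulfatase gene Arsb (16.1 and 10.8), with its summit 390 bp inside the gene, and Naglu, which shares the Atp6v0a1 region.

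Of 32 genes of mTORC1, AMPK and transcriptional control 10 had a region (31.25%, interval 16.1 to 50.0%, against 15.2% of all genes), and 7 within 1 kb. The leading ones were Akt1s1, for an mTORC1 subunit (16.6 and 8.002, nearest to Tbc1d17), the kinase gene Mtor (12.2 and 3.68) and its partner gene Mlst8 (7.03 and 8.63). Macrophages are rich in lysosomes and belong to the cells of a total heart. Of 17 macrophage marker genes 2 had a region (11.8%, interval 1.46 to 36.4%, against 15.2% of all genes). These were Spi1 (11.8 and 7.55), whose region was nearest to the sarcomere gene Mybpc3, and Cd68 (6.36 and 5.55), whose region was nearest to Mpdu1. None of the 17 had a shared region within 1 kb of a gene end, against 8.38% of all genes. A list of 17 genes is too short to tell these shares apart. Peak lists hold no transcript level, so the cell makeup of the hearts was not measured here.

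**Figure D5:**
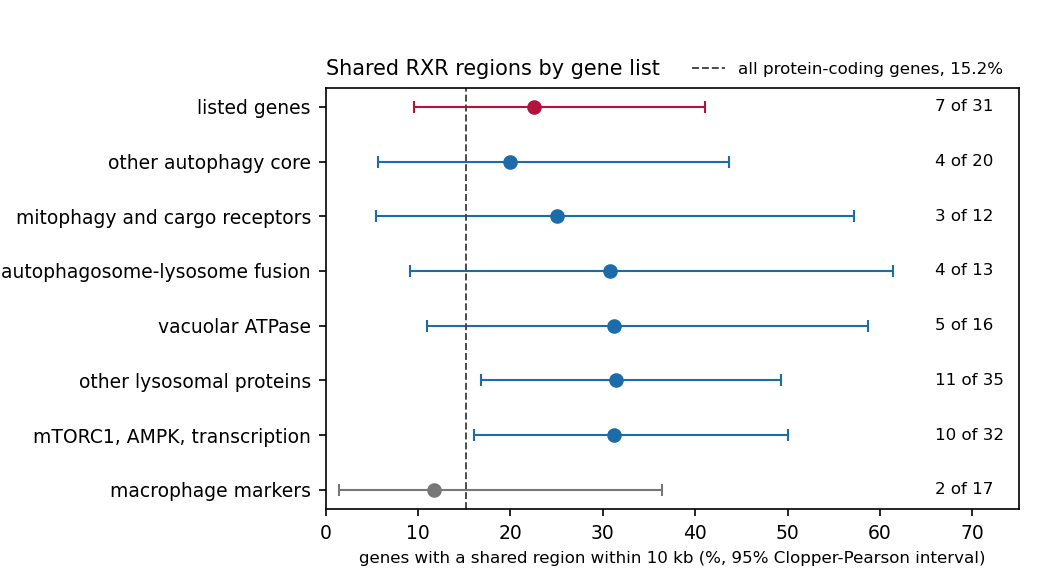
The horizontal axis gives the percentage of genes in each list with a region shared by both WT hearts within 10 kb, with 95% Clopper-Pearson intervals and the counts at the right. The dashed line marks the 15.2% of all protein-coding genes, and the interval of the 31 listed genes (7 of 31) spans it.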

How the data were processed

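RXR chromatin immunoprecipitates and inputs of 2 WT and 2 edKO hearts had been sequenced. The submitters' processing notes name cutadapt, BWA, SAMtools and MACS3, with the build mm10 (GRCm38), and their versions and settings were not given in the sources used here. Per the labels, 1 peak list was made per heart, so peaks were not called on pooled hearts. The deposited columns are peak positions, a display score that was not used, the authors' fold enrichment (a ratio of summit signal to local background), and the authors' −log10 p and −log10 q.

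Lists were read with pandas 2.3.3 and numpy 2.4.6 in Python 3.11.15, and figures drawn with matplotlib 3.10.9. Peaks of the WT hearts overlapping by at least 1 bp formed a shared region, with 1 peak per heart, and its summit was that of WT replicate 3. Genes came from RefSeq (GRCm38.p6), by symbol, and all 31 listed genes and all genes of the further lists matched. Of the listed genes 25 had a promoter window. The table of genes has no strand, so distances are to either gene end. Fragments at a summit were solved from fold enrichment (pseudocount 1) and the Poisson −log10 p, and 100% of peaks in each list gave a whole number within 0.02 on the −log10 p scale. The solver was checked on simulated peaks. Intervals (scipy 1.17.1) cover counting error only, since duplicate removal is not stated. Full values are given for listed genes with a shared region, and the 3 strongest genes of each further list are named, except 1 that is not reported here. The listed genes and lists were chosen with earlier results of these data known, and genes are not replicates, so lists are described by counts beside those of all genes without a test. Peak numbers of hearts were compared by an exact permutation test, with hearts unpaired, as the labels do not say that a shared number marks a litter or day. The alternatives concerned the distance, the overlap, the p-value threshold, single hearts and pairing.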

Additional observations from a re-analysis of the deposited data

How the results depend on the processing

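The direction of the WT minus edKO difference in peak number at listed genes, 20.0 peaks, was the same under every alternative run, and no p fell below 0.333. No edKO heart had a listed peak within 10 kb. A stricter threshold, a shorter distance, pairing or a left-out heart could therefore not reverse the direction, and the number of hearts limits the p. The difference was 11.0 with a −log10 p of at least 10, 15.0 within 1 kb, 24.0 with whole genes included and 59.5 within 50 kb. With 1 heart left out it lay between 9 and 31. With the replicate number as a block, an exact sign-flip test over 2 pairs gave p = 0.5, the smallest it allows. The share of listed genes with a shared region, 22.6%, rose to 45.2% within 50 kb (31.9% of all genes). With 1 WT heart left out it was between 22.6 and 71.0%, the higher value being that of all peaks of WT replicate 3 (42.4% of all genes). It was 16.1% with a −log10 p of at least 10 (11.1% of all genes) and 12.9% when 50% of each peak had to overlap (11.5% of all genes). The latter kept 4 of the 7 genes and lost Ulk2, Atg5 and Tfeb. With each region given to its nearest gene the 7 genes remained (22.6%, against 10.4% of all genes). The median fold enrichment of 8.75 stayed between 5.30 and 12.4, but lay below that of all genes with a region in either WT heart alone and within 50 kb (8.63 against 8.65), and the share of regions within 1 kb between 71.0 and 88.9%. Sites without a listed peak have no value here, so weak signal and no signal cannot be told apart.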

Other observations

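Listed genes also had shared regions that lay more than 10 kb from a gene end. Inside Wipi1, 11.8 kb from its nearer end, a region spanning 109585177 to 109585760 of chromosome 11 reached a fold enrichment of 18.1 (WT replicate 3) and 7.26 (WT replicate 4), a higher mean than at any listed gene counted except Ctsl and Ulk2. Inside Atg7, the E1-like enzyme gene, a region 41.9 kb from the nearer end reached 10.3 and 5.55. Tfeb had a second shared region inside the gene, 23.3 kb from its end, at 7.45 and 6.71. None of these 3 regions had a peak in the edKO hearts, whose whole lists hold 8 (replicate 3) and 127 (replicate 4) peaks.

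Within 50 kb, 7 further listed genes had a shared region, and most of these regions were nearest to another gene. Gabarap lay 42.8 kb from the region nearest to the glucose transporter gene Slc2a4 (24.4 and 12.6) and 20.0 kb from the region nearest to Acadvl (20.4 and 11.6), the one with a peak in edKO replicate 4. The region 27.3 kb from Map1lc3b was nearest to Fbxo31 and was stronger in WT replicate 4 (14.03) than in WT replicate 3 (6.05). For Becn1 the nearest gene was Vps25, a subunit gene of the endosomal sorting complex ESCRT-II, at its strongest region (7.88 and 5.55). Lamp1, which had no peak within 10 kb, had a region 33.5 kb away that was nearest to Grtp1 (9.28 and 5.08).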
